A study of Homo sapiens with 6 samples.

Results

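The expression of 10 imprinted genes was described in lenvatinib-resistant and lenvatinib-sensitive liver cancer cells. The genes were taken by symbol, as PEG10, SGCE, MEST, PEG3, PLAGL1, NDN, NNAT, MEG3, CDKN1C and GRB10, and 9 of them had a row among the 24432 symbols of the files. NDN, the gene of the MAGE-family protein necdin, is not analysed here. RNA-seq was available for 6 libraries from PLC/PRF/5 cells, a human line long established from a hepatocellular carcinoma, with 3 libraries in each group. The resistant cells carried the labels "Lenvatinib resistant" for genotype and "Lenvatinib" for treatment. They had been grown in stepwise rising lenvatinib, a multikinase inhibitor of VEGF and FGF receptors, which the labels give as 20 µmol/L at the start and 40 mmol/L at the end, in units that do not match. The sensitive cells were labelled "WT" and "control" and had the same line name, medium and serum. Drug exposure and resistance cannot be told apart in this design, and whether replicates came from separate cultures is not stated. The spread that the p-values rest on is therefore that among these libraries and may be technical.

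Imprinted genes are expressed mainly from the copy inherited from a given parent, because a DNA methylation mark set in the egg or sperm is kept at a control region after fertilization. Many act in fetal growth and metabolism, and paternally and maternally expressed genes often sit side by side under a shared control region. PEG10, SGCE, MEST, PEG3, PLAGL1, NDN and NNAT are paternally expressed, MEG3 and CDKN1C are maternally expressed, and the expressed copy of GRB10 depends on isoform and tissue. The values below add up the RNA of both copies, so they carry no information on which copy was read.

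Values are FPKM, counts of fragments scaled by transcript length and library size, a unit inferred from the values themselves. Levels of different genes can thus be compared per length. The step between the lowest values differed by at most 3.46% between libraries, and the ranges of the groups overlapped. Sensitive replicate 3 stood apart, with a Pearson's r across genes of 0.9515 and 0.9643 to the other sensitive libraries, which correlated at 0.9947 with each other. Resistant libraries correlated at 0.994 to 0.996 among themselves, and at only 0.680 to 0.706 with the sensitive ones. Both groups carry the same line name, but whether the libraries are of a single line was not tested, and each fold change below is a difference between these libraries. Among the sensitive libraries, replicate 3 held the lowest value of 53.4% of all tested genes and of all 5 imprinted genes tested below. The 14 hepatocyte markers summed to between 16.6 and 43.9 FPKM in resistant and between 4082 and 4432 FPKM in sensitive libraries, and 5 of them in resistant and 13 in sensitive cells averaged at least 1 FPKM. TTR was listed at 0 in the resistant libraries. None of 8 fibroblast or 6 endothelial markers averaged 1 FPKM in either group, and the leukocyte antigen gene PTPRC was listed at 0 in all libraries, although LYZ and CD68 carried a leukocyte list sum of 2.76 to 5.43 FPKM in resistant and 249.6 to 268.1 FPKM in sensitive libraries. Keratin and squamous markers summed to 709.5 to 842.4 FPKM in resistant and 29.2 to 33.5 FPKM in sensitive libraries, and neural markers to 123.2 to 150.8 FPKM in resistant and 26.9 to 71.5 FPKM in sensitive libraries. Single genes carried much of these sums. SFN averaged 659 FPKM in resistant and 3.18 FPKM in sensitive libraries, but EPCAM 11.2 and 27.8 FPKM. TUBB3 averaged 132.2 and 7.93 FPKM, but SYP 4.15 and 34.1 FPKM. Of the tested keratin and squamous markers 3 were higher in resistant cells and 1 lower, and of the neural ones 1 was higher and 1 lower. The part of these shifts in the results below was not tested, and in bulk RNA fewer cells of a type and less RNA per cell cannot be told apart.

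In resistant cells GRB10 and SGCE were higher, PEG3 and PLAGL1 lower, and PEG10 did not pass the test. These were the 5 genes with at least 1 FPKM in at least 3 libraries. Of them 2 were called higher and 2 lower (limma on log2(FPKM + 1), adjusted p under 0.05 with Benjamini-Hochberg adjustment over all 11694 tested genes). Over all tested genes 67.7% were called, 35.2% higher and 32.5% lower, so the share called among the 5 is near that background. The groups did not overlap for 4 of the 5, against 74.4% of all tested genes. PEG3 and PLAGL1 reached the filter only in the sensitive libraries, so they had to be lower in resistant cells. CDKN1C, MEST, NNAT and MEG3 were below the filter. The median log2 fold change of the 5 tested genes was -0.88, against 0.08 over all tested genes. That median is the value of PEG10, which did not pass, and the values below it are those of PEG3 and PLAGL1. It is therefore not read as a shift of the 5 genes.

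**Figure D1:**
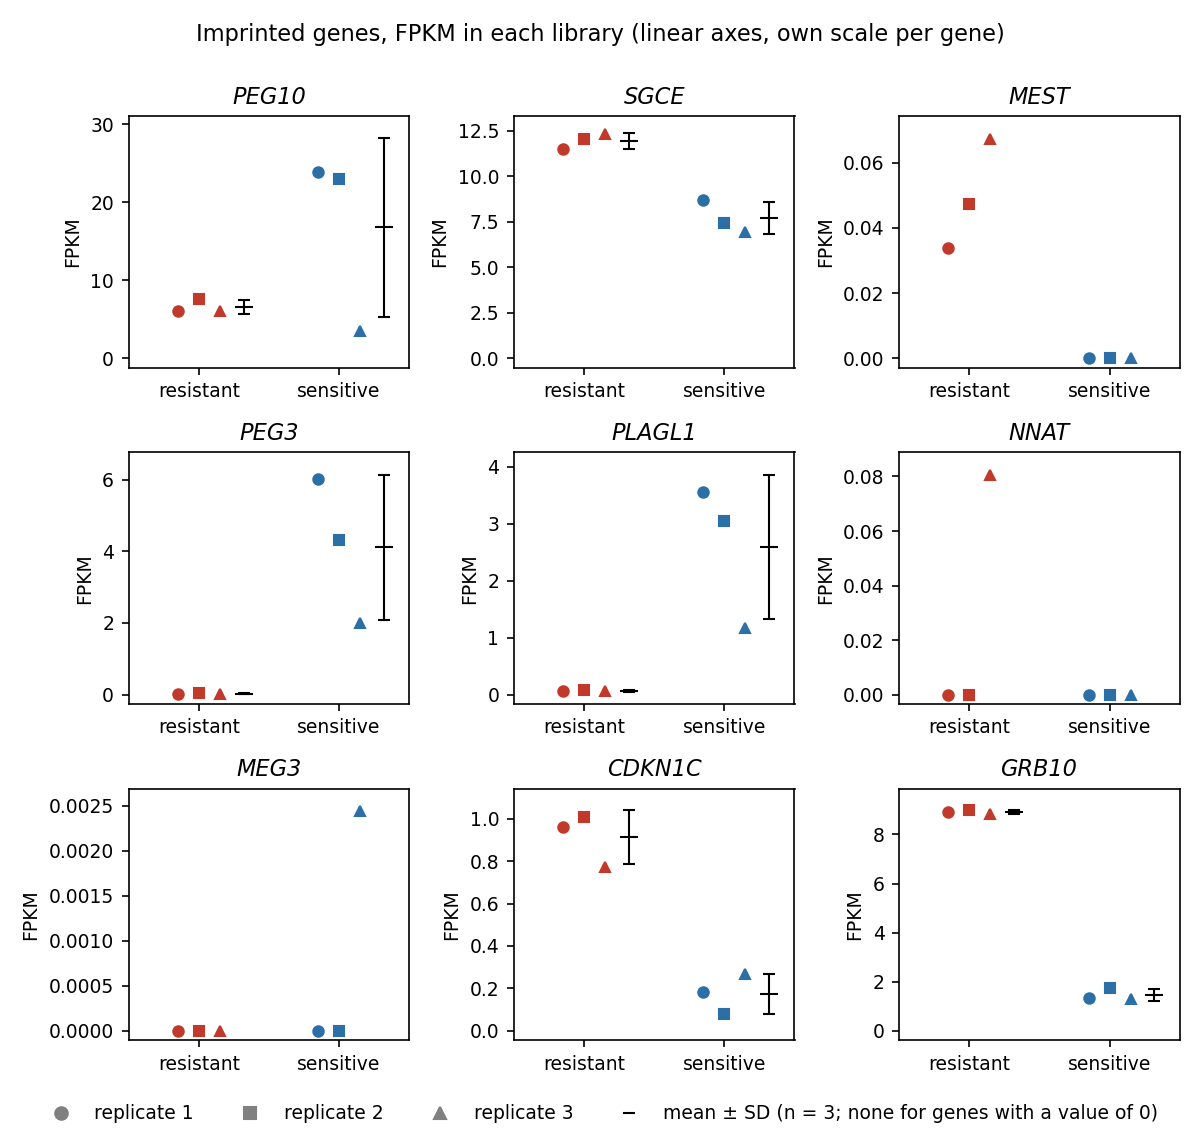
FPKM of the 9 imprinted genes with a row in the files, on linear axes with a scale of its own for each gene; red symbols are resistant and blue symbols sensitive libraries, symbol shapes mark replicates 1 to 3, and black bars give mean ± SD (n = 3) for genes with no value of 0. PEG3 and PLAGL1 are near 0 in the resistant libraries, GRB10 is near 9 FPKM there, and PEG10 in sensitive replicate 3 lies at 3.50 FPKM, below the resistant libraries.

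The order of levels differed between the groups. In resistant cells SGCE had the highest level, followed by GRB10, PEG10 and CDKN1C, and none of these neighbours in the order overlapped in their library values. PLAGL1, MEST, NNAT and PEG3 followed below 0.1 FPKM, where neighbours overlapped, and MEG3 was listed at 0. In sensitive cells PEG10 had the highest mean, though its range of 3.50 to 23.9 FPKM overlapped that of SGCE. PEG3, PLAGL1 and GRB10 came next, each overlapping its neighbour, and CDKN1C lay below them.

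PEG10 and SGCE are neighbours on chromosome 7, transcribed away from each other from a shared imprinted region. PEG10 derives from the gag and pol genes of an ancient retrotransposon and is needed for placenta formation in mice. It was at 6.06, 7.58 and 6.09 FPKM in resistant replicates 1, 2 and 3, against 23.9, 23.0 and 3.50 FPKM in the sensitive ones. The groups thus overlapped through sensitive replicate 3 alone, in which PEG10 was lower than in any resistant library. The log2 fold change was -0.88 (SE 0.64, adjusted p = 0.256). Without sensitive replicate 3 it was -1.70 (SE 0.11, adjusted p = 1.77e-06), and 80.7% of all tested genes were then called. Relative to the mean of the other 2 sensitive libraries, with 1 FPKM added, PEG10 in sensitive replicate 3 had a ratio of 0.184, and only 2 of the 11694 tested genes, PEG10 included, had a ratio as low. This ratio was looked at after the values of PEG10 had been seen.

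SGCE encodes epsilon-sarcoglycan, a membrane protein whose loss causes myoclonus-dystonia. It was at 11.5, 12.0 and 12.4 FPKM in the resistant libraries, against 8.70, 7.47 and 6.96 FPKM in the sensitive ones. Every resistant library lay above every sensitive one, by a ratio of means of 1.55. The mean was 12.0 ± 0.433 FPKM in resistant and 7.71 ± 0.892 FPKM in sensitive cells (SD, n = 3 each), and the log2 fold change 0.58 (SE 0.12, adjusted p = 0.0046). Tested against a change of 1.5-fold rather than against no change, SGCE did not pass (adjusted p = 0.868). The ratio of PEG10 to SGCE was 0.527, 0.631 and 0.493 in the resistant libraries, against 2.75, 3.08 and 0.502 in the sensitive ones, so sensitive replicate 3 had a ratio within the resistant range.

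The genes around this pair moved both ways. Both other imprinted genes of 7q21.3 were higher in resistant cells, and of 6 tested neighbours 3 were higher and 3 lower. Over all tested genes 35.2% were called higher and 32.5% lower. TFPI2, a serine protease inhibitor gene, was at 179.8, 164.6 and 158.9 FPKM in resistant libraries, against 0.0343, 0.113 and 0.0234 FPKM in sensitive ones, with a log2 fold change of 7.32. GNG11, a G protein gamma subunit gene next to it, had a log2 fold change of 4.97, the transport gene BET1 of 0.74 and the acetyltransferase gene CASD1 of 0.83. PPP1R9A, on the PEG10 side, encodes neurabin and had a log2 fold change of 0.96. Beyond it the paraoxonase genes PON3 and PON2 and the kinase gene PDK4 were lower, with log2 fold changes of -5.59, -2.48 and -2.40. PON3 is made mainly in liver, and the hepatocyte markers above were lower in the same libraries, but a link between them was not tested. TFPI2, PPP1R9A, GNG11 and CASD1 reached the filter only in the resistant libraries, and PON3 and PDK4 only in the sensitive ones.

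**Figure D2:**
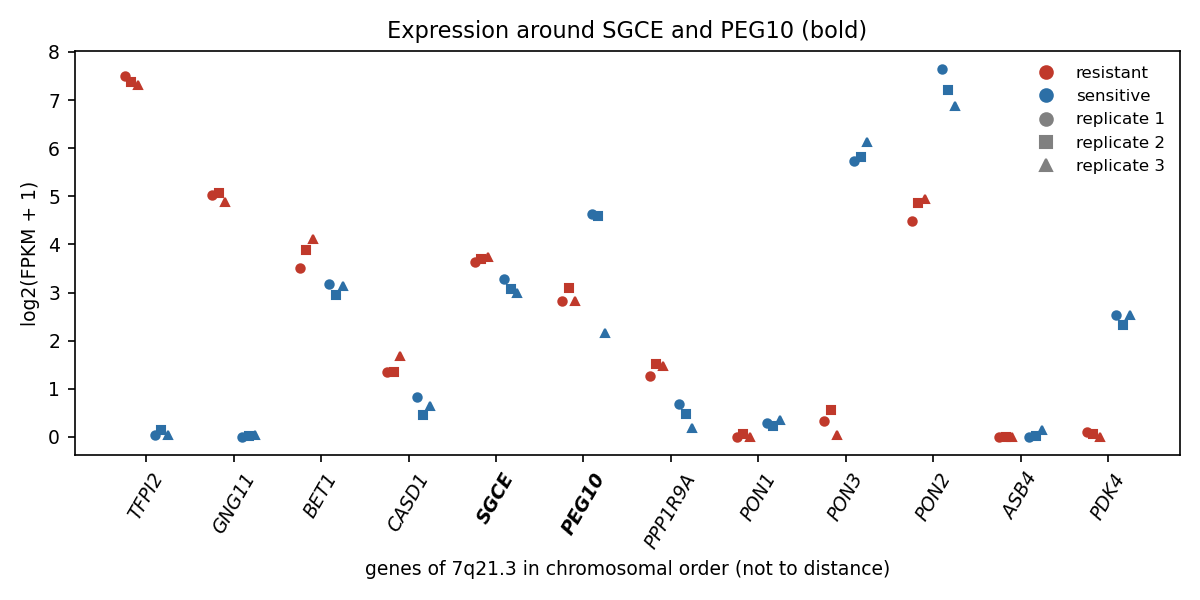
log2(FPKM + 1) of 12 genes of 7q21.3 in chromosomal order from left to right, not spaced by distance, with resistant libraries in red to the left of sensitive libraries in blue and symbol shapes for replicates. The resistant libraries lie above the sensitive ones from TFPI2 to SGCE and for PPP1R9A, and below them for PON3, PON2 and PDK4, while PEG10 overlaps.

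PEG10 had the highest mean of the 10 genes over the 6 libraries, and its profile was set against that of all tested genes by the Euclidean distance of standardized log2(FPKM + 1) values. The nearest were SMG8, NEURL4 and KNSTRN, at 0.168, 0.169 and 0.172 over 6 libraries. All have sensitive replicate 3 below the resistant libraries and sensitive replicates 1 and 2 above them. KNSTRN, a spindle gene, was at 32.5, 35.4 and 32.0 FPKM in resistant libraries, against 51.3, 48.6 and 28.4 FPKM in sensitive ones. The likeness of profiles is a description over 6 libraries in 2 groups.

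PEG3, a zinc finger protein gene that affects growth and maternal care in mice, was nearly silent in resistant cells. It was at 0.0110, 0.0381 and 0.0299 FPKM in resistant libraries, against 6.02, 4.32 and 2.00 FPKM in sensitive ones. The mean was 0.0263 ± 0.0139 FPKM in resistant and 4.11 ± 2.02 FPKM in sensitive cells (SD, n = 3 each), and the sensitive mean was 156.2 times the resistant one. The log2 fold change was -2.23 (SE 0.29, adjusted p = 0.000453), which understates so large a ratio because 1 FPKM is added before the logarithm. With 0.1 FPKM added it was -4.93. MIMT1, a noncoding gene beside PEG3 chosen here after its values were seen, was listed at 0 in all resistant libraries, against 0.469, 0.580 and 0.280 FPKM in sensitive ones. ZIM2, which shares its first exons with PEG3, was at or below 0.0546 FPKM in all libraries. With no filter on low values, MIMT1 was lower in resistant cells (limma adjusted p = 0.0029), and ZIM2 did not pass (adjusted p = 0.147).

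PLAGL1, also known as ZAC1, encodes a zinc finger transcription factor that restrains proliferation and activates other imprinted genes in mice. It was at 0.0552, 0.0823 and 0.0639 FPKM in resistant libraries, against 3.57, 3.05 and 1.17 FPKM in sensitive ones. The groups were far apart, with a mean of 0.0672 ± 0.0138 FPKM in resistant and 2.60 ± 1.26 FPKM in sensitive cells (SD, n = 3 each). The log2 fold change was -1.68 (SE 0.27, adjusted p = 0.00124), and -3.88 with 0.1 FPKM added. HYMAI, a noncoding transcript that starts with PLAGL1 and was chosen here after its values were seen, was listed at 0 in all resistant libraries, against 0.0830, 0.0373 and 0.0154 FPKM in sensitive ones, so it was near 0 in both groups. Both transcripts lie on the same strand, so reads of their shared part cannot be assigned to either. SF3B5, a splicing factor gene and neighbour on chromosome 6, was also lower in resistant cells, with a log2 fold change of -1.84. Other listed chromosome 6 genes, chosen here after their values were seen, were PHACTR2, STX11, LTV1 and ZDHHC14, lower at -1.43, -1.17, -0.77 and -0.65. UTRN did not pass, at -0.77 (limma adjusted p = 0.0787). STX11 and ZDHHC14 reached the filter only in the sensitive libraries. Over the neighbours of PEG3, PLAGL1, GRB10, CDKN1C, NNAT and MEG3 together, 5 of 17 tested genes (29.4%) were higher and 7 (41.2%) lower, against 35.2% and 32.5% of all tested genes, and 5 of the 17 reached the filter in 1 group only.

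PLAGL1 has several start sites, of which RefSeq lists 5 windows of 300 bases (250 before and 50 after the start, GRCh38.p14). The 3rd window is also that of HYMAI and is the imprinted start, whereas the 1st is an upstream start read from both copies. These windows are shown because the 3rd is the imprinted start of PLAGL1, a gene lower in resistant cells, and the 1st is not imprinted. Capitals mark the hexamer TGCCGC on either strand (GCGGCA on the reverse), the letters bound by ZFP57 when methylated, a zinc finger protein that protects imprints. The sequences are from RefSeq.
PLAGL1 and HYMAI, 3rd PLAGL1 window, chr6:144008210-144008509, minus strand: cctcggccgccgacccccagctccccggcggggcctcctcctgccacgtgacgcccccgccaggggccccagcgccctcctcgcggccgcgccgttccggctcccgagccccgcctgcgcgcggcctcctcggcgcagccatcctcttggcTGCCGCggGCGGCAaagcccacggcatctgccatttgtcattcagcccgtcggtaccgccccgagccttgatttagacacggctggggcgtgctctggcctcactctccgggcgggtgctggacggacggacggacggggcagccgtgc
PLAGL1, 1st window, chr6:144064550-144064849, minus strand: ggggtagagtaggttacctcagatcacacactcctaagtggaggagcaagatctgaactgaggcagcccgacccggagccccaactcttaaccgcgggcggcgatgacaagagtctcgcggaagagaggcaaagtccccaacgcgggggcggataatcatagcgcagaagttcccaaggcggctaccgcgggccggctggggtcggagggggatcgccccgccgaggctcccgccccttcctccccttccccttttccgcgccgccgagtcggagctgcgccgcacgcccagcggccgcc

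The imprinted window held 39 CpG dinucleotides and 2 hexamers, and the upstream window 31 CpG dinucleotides and no hexamer. Over 35116 RefSeq windows of the same length, the median was 14 CpG dinucleotides (quartiles 4 and 28), 16.7% held at least 1 hexamer and 2.75% at least 2. A core motif of the factor YY1, AAGATGG on either strand, was in neither window and in 5.84% of all windows. The deposited values sum all starts of PLAGL1, so its lower level could not be split by start. A match is a description of letters and not of binding, and methylation was not measured.

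GRB10 encodes an adaptor that binds the insulin and IGF1 receptors and dampens their signal, and in mice its maternal copy limits fetal growth. It was at 8.92, 9.002 and 8.84 FPKM in resistant libraries, against 1.35, 1.75 and 1.30 FPKM in sensitive ones. All resistant libraries lay well above all sensitive ones, with means of 8.92 ± 0.0789 FPKM in resistant and 1.47 ± 0.247 FPKM in sensitive cells (SD, n = 3 each), a ratio of 6.08. The log2 fold change was 2.01 (SE 0.12, adjusted p = 1.01e-05). COBL and DDC, which flank GRB10 on chromosome 7 and are imprinted in some mouse tissues, were lower in resistant cells, with log2 fold changes of -2.20 and -1.55. Both reached the filter only in the sensitive libraries. FIGNL1, another neighbour on chromosome 7 and chosen here after its values were seen, was higher, with a log2 fold change of 1.15 (limma adjusted p = 0.0146). It reached the filter in both groups.

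RefSeq lists 5 windows for GRB10 as well, and the 1st holds 44 CpG dinucleotides and 1 hexamer. The 2nd, 3rd, 4th and 5th hold 49, 24, 3 and 4 CpG dinucleotides and no hexamer. The 1st is shown as the first listed start of the gene with the largest positive fold change among the tested 5. It is not shown as an imprinted start, and which window is imprinted was not examined.
GRB10, 1st window, chr7:50793404-50793703, minus strand: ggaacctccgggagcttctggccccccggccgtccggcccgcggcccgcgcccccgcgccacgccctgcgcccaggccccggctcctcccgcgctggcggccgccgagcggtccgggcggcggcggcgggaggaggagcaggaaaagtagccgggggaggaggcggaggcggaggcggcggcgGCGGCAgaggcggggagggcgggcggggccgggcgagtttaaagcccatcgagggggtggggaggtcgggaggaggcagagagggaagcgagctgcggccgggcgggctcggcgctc

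Genes of the receptor pathway that GRB10 dampens moved both ways, with 3 of 10 tested (30%) higher, 4 (40%) lower and 3 not past the test, near the 35.2% and 32.5% of all tested genes. The receptor genes INSR and IGF1R were lower in resistant cells. INSR was at 1.58, 1.87 and 1.81 FPKM in resistant libraries, against 9.61, 9.67 and 7.19 FPKM in sensitive ones, a log2 fold change of -1.83. IGF1R had a log2 fold change of -1.52. The docking protein gene IRS2 was higher, at 13.4, 13.6 and 14.4 FPKM in resistant libraries, against 1.09, 1.33 and 0.807 FPKM in sensitive ones, a log2 fold change of 2.84. GRB14, a relative of GRB10 with a similar role at the insulin receptor, was lower, with a log2 fold change of -1.74, and reached the filter only in the sensitive libraries.

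CDKN1C encodes p57, an inhibitor of cyclin-dependent kinases that is maternally expressed from the 11p15.5 cluster. It was at 0.961, 1.01 and 0.771 FPKM in resistant libraries, against 0.182, 0.0771 and 0.266 FPKM in sensitive ones. All resistant libraries lay above all sensitive ones, with a ratio of means of 5.22, but only 1 library reached 1 FPKM, so the gene was not tested. With no filter on low values the log2 fold change was 0.70 (SE 0.08, limma adjusted p = 0.0012). Of the other 7 inhibitors of cyclin-dependent kinases tested, 4 (57.1%) were higher, 2 (28.6%) lower and 1 did not pass, against 35.2% higher and 32.5% lower of all tested genes. CDKN1A, encoding the related p21, had a log2 fold change of 4.16 and CDKN2B of 0.82, whereas CDKN2C and CDKN2A had -3.15 and -0.59. CDKN2B reached the filter only in the resistant libraries, so it had to be higher there.

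MEST, NNAT and MEG3 were at or near 0 in both groups. MEST, encoding a hydrolase-like protein of fetal mesoderm, was at 0.0339, 0.0472 and 0.0673 FPKM in resistant libraries and listed at 0 in all sensitive ones. Its neighbours on 7q32.2 were well expressed and higher in resistant cells, as COPG2, a coat protein gene, was at 18.2, 19.4 and 18.6 FPKM there, against 3.85, 3.59 and 4.79 FPKM in sensitive libraries. CEP41, a centrosomal gene, had a log2 fold change of 0.73. The 5th RefSeq window of MEST holds 25 CpG dinucleotides and 3 hexamers, of which 2 on opposite strands overlap, and 0.441% of all windows reach 3. It also holds 1 YY1 core motif, and the window is shown for this density.
MEST, 5th window, chr7:130491835-130492134, plus strand: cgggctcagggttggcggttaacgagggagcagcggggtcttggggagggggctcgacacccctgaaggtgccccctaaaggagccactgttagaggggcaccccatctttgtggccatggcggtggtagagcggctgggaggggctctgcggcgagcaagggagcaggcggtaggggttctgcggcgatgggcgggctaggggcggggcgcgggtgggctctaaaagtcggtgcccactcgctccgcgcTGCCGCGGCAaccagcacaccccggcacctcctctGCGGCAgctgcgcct

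NNAT, a proteolipid gene of brain and fetal tissue, was at 0.0805 FPKM in resistant replicate 3 and listed at 0 in the other 5 libraries. It sits inside an intron of BLCAP on the opposite strand. BLCAP was at 54.0, 49.2 and 48.3 FPKM in resistant libraries, against 14.6, 16.4 and 20.7 FPKM in sensitive ones, a log2 fold change of 1.51. The strand setting of the counting is not given in the sources used here. MEG3, a long noncoding RNA with growth-restraining activity, was at 0.00244 FPKM in sensitive replicate 3 and listed at 0 in the other 5 libraries. Of the paternally expressed genes beside it, DLK1 was listed at 0 in all 6 libraries and RTL1 in all but resistant replicate 3, and no gene of the 14q32.2 list was tested. BEGAIN, a gene beside this cluster, was at 1.96, 1.67 and 1.49 FPKM in resistant libraries and listed at 0 in the sensitive ones.

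Beyond the 10 genes, 43 of 50 other genes described as imprinted were in the files and 20 were tested. Of these 10 were higher, 6 lower and 4 did not pass, and 7 reached the filter in 1 group only. Their median log2 fold change was 0.52, against 0.08 over all tested genes, and the share called higher was 50% against 35.2%. At 11p15.5, 3 of 4 tested genes were higher and none lower. H19, a maternally expressed noncoding RNA of fetal liver, was at 180.6, 164.5 and 117.7 FPKM in resistant libraries, against 66.0, 47.7 and 20.8 FPKM in sensitive ones, a log2 fold change of 1.88. IGF2, its paternally expressed partner and chosen here after its values were seen, stayed below the filter at 0.440, 0.503 and 0.656 FPKM, against 0.00763, 0.0113 and 0.00780 FPKM in sensitive libraries. PHLDA2 and OSBPL5, near CDKN1C, had log2 fold changes of 1.37 and 2.05, and OSBPL5 reached the filter only in the resistant libraries. SLC22A18, a transporter gene of the same cluster, did not pass, at -0.44 (adjusted p = 0.221).

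At 15q11-q13, the Prader-Willi region that also holds NDN, 3 of 4 tested genes were lower and none higher. For this and the loci below, the shares over all tested genes were 32.5% lower and 35.2% higher. MKRN3, IPW and ZNF597 below reached the filter only in the sensitive libraries. MKRN3, a ubiquitin ligase gene that restrains puberty, was listed at 0 in resistant replicates 1 and 2 and at 0.0107 FPKM in resistant replicate 3, against 2.90, 2.56 and 1.42 FPKM in sensitive ones. The noncoding host transcript SNHG14 and the noncoding IPW had log2 fold changes of -1.12 and -0.74, while UBE3A, the Angelman syndrome gene, did not pass, at 0.08 (adjusted p = 0.808). Reads may be shared between SNHG14 and IPW, which was not tested, so they may not be separate results. At 16p13, ZNF597 and NAA60 were lower, with log2 fold changes of -1.58 and -1.19. At 20q11 and 20q13 all 3 tested genes were higher, with BLCAP, MCTS2P at 1.74 and GNAS at 1.00. MCTS2P is a retrocopy of MCTS1, so its reads may be shared with that gene. RB1 was higher by 1.03. CPA4, near MEST, was higher by 1.80 and reached the filter only in the resistant libraries. INPP5F was lower, with a log2 fold change of -0.58 at a limma adjusted p of 0.0497, a call that was lost under 10 of its 14 alternatives. Of the libraries, leaving out any but sensitive replicate 3 lost it, with adjusted p-values of 0.102 to 0.141.

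**Figure D3:**
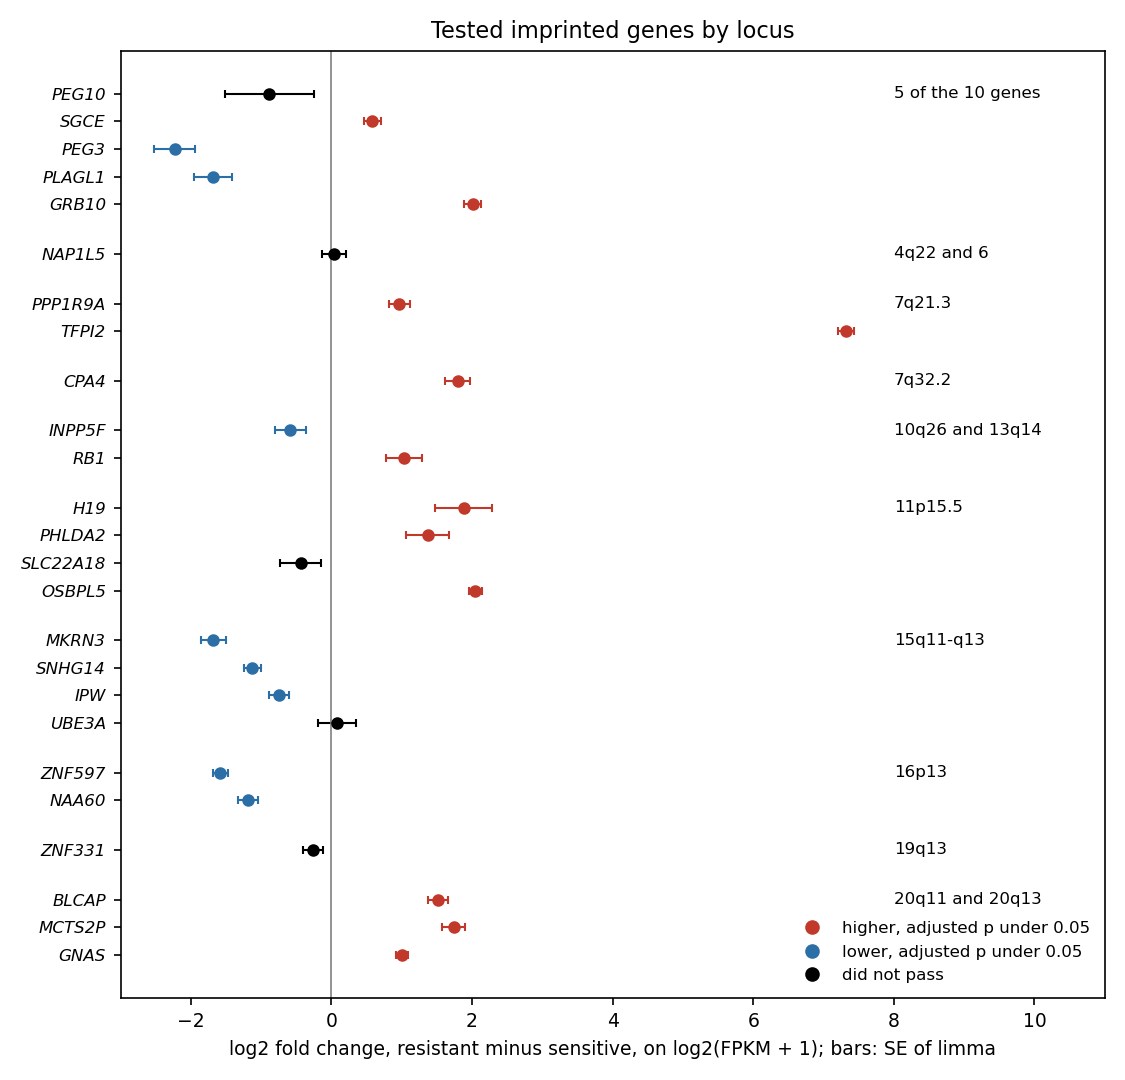
log2 fold change (resistant minus sensitive, on log2(FPKM + 1)) of the 5 tested of the 10 imprinted genes and of 20 other tested imprinted genes, grouped by chromosome band; bars are limma's SE, red is called higher, blue called lower and black not past the test. The tested genes of 20q11 and 20q13 lie to the right of 0, and the called genes of 15q11-q13 and 16p13 to the left.

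Genes linked to setting or keeping imprints moved both ways, with 3 of 14 tested genes (21.4%) higher, 4 (28.6%) lower and 7 not past the test, against 35.2% higher and 32.5% lower of all tested genes. ZFP57, which binds the hexamer above, was listed at 0 in all libraries, and ZNF445, which shares its role, did not pass, at 0.06 on the log2 scale (adjusted p = 0.817). DNMT3B, a de novo DNA methyltransferase, was at 1.67, 1.76 and 1.45 FPKM in resistant libraries, against 8.40, 9.94 and 4.63 FPKM in sensitive ones, a log2 fold change of -1.67. TRIM28, the corepressor that zinc finger proteins recruit, had a log2 fold change of -0.59, a call lost without resistant replicate 2 (adjusted p = 0.0529) and under quantile normalization (adjusted p = 0.0587). Without resistant replicate 2 only 2 genes of the list were lower. ZNF202 and the chromatin gene ARID4A were higher, by 1.21 and 0.90. The methyltransferase genes DNMT1 and DNMT3A, chosen here after their values were seen, were lower, at -0.52 and -0.30 (limma adjusted p = 0.0044 and 0.0493). TET3, chosen likewise, was higher, at 0.39 (limma adjusted p = 0.014).

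The calls of PEG3, PLAGL1 and GRB10 held under every alternative in which they were tested, and none of the 5 genes changed direction. For PEG3 and PLAGL1 the direction was fixed wherever the filter was applied, since they reached it only in the sensitive libraries. The plot of the 5 tested genes by setting shows these values.

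**Figure D4:**
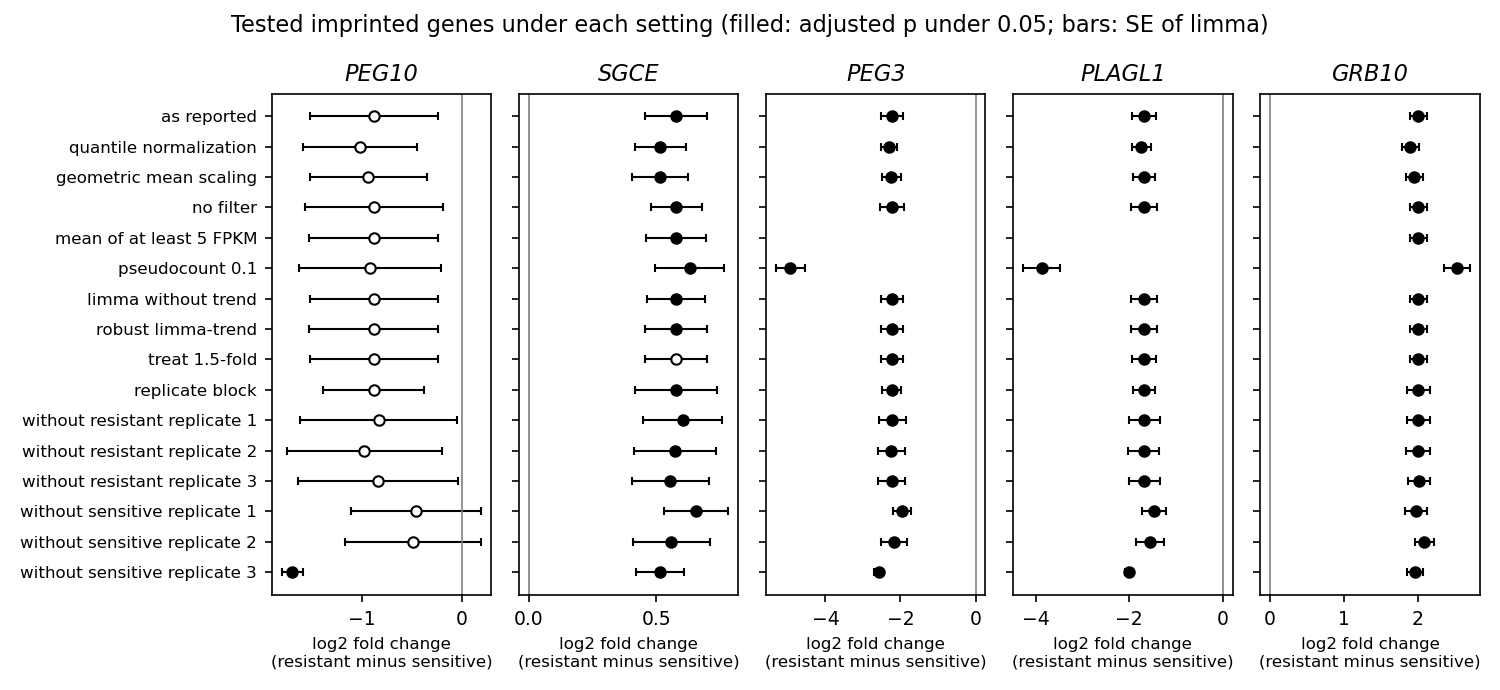
log2 fold change (resistant minus sensitive) of the 5 tested imprinted genes, a panel each, under the reported fit and 15 alternatives listed down the page; bars are limma's SE, filled symbols have an adjusted p under 0.05 and open ones do not. PEG10 is filled only without sensitive replicate 3, and SGCE is open only in the test against a 1.5-fold change; PEG3 and PLAGL1 have no symbol at a mean of at least 5 FPKM, which they do not reach.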

How the data were processed

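Groups and replicates follow the sample titles. Each library has a deposited table of 1 value for every gene symbol, and the values fit FPKM, a unit inferred from them, as column sums differ and no header names it. The submitters' processing notes name cutadapt and HISAT2. Not given in the sources used here: versions, counting program, build, annotation, strandedness. Read counts are not analysed here, so precision rests on the spread over 3 libraries.

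A gene was tested if 3 libraries or more had 1 FPKM or more. The test was limma's moderated test with trend (limma 3.58.1, R 4.3.3) on log2(FPKM + 1), in a single fit of group over all 6 libraries, adjusted by Benjamini-Hochberg over all 11694 genes at a threshold of 0.05. Residual degrees of freedom were 4 and prior ones 2.75. The code was checked on simulated data. Since 0 may be a failed estimate, such values are given as listed at 0. Fold changes are resistant minus sensitive and, on this scale, understate changes of low genes. Python 3.11.15 with pandas 2.3.3 and matplotlib 3.10.9 made the tables and plots. Strands are from GENCODE, gene order and promoter windows from RefSeq (GRCh38.p14), where 5 of the 10 genes matched.

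The genes and lists (other imprinted genes, neighbours, imprint maintenance, partners and relatives of the 10 genes, cell type markers) were chosen with earlier results of these data known. Named were the 10 genes, the called genes of the imprinted lists and of the 7q21.3 and 7q32.2 neighbours, up to 4 called genes of each other list by size of change, and the 3 genes with profiles nearest to PEG10. Genes outside this rule are marked, or are given as levels or as not past the test. Lists are described by counts beside those of all genes, with no set test. Alternatives were quantile normalization, geometric mean scaling, dropping the filter, requiring a mean of 5 FPKM, adding 0.1 in place of 1, limma without trend, robust limma, a test against a 1.5-fold change, replicate number as a block, and leaving out each library.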

Additional observations from a re-analysis of the deposited data

How the results depend on the processing

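None of the 5 tested imprinted genes or of 63 other named genes changed direction. The balance of counts did change under some alternatives. Maintenance genes went from 3 higher and 4 lower to 4 higher and 3 lower with no filter. Over all genes, 4117 higher and 3803 lower became 4095 and 4098 under quantile normalization. Dropping the filter called 4 of the imprinted genes higher, with CDKN1C and MEST added, and 11 other imprinted genes higher and 10 lower. Of all 22521 genes then tested, 5149 were higher and 4890 lower. Requiring a mean of 5 FPKM left 0 of the imprinted genes lower, since PEG3 and PLAGL1 do not reach it, 1 other imprinted gene lower, 0 imprint maintenance genes higher and 2 lower, and over all genes 2465 higher and 2508 lower. Against a 1.5-fold change 2217 genes were higher and 2140 lower, with 1 of the imprinted genes higher, and 1 maintenance gene in each direction. SGCE, at 0.58, was not past that test (adjusted p = 0.868). Leaving out libraries gave 2 to 5 maintenance genes lower, the fewest without resistant replicate 2, and a PEG10 log2 fold change of -1.70 to -0.46, past the test only without sensitive replicate 3. The cause of that dependence was not tested. Of 923 values for 63 other named genes under these alternatives, 897 kept their call and 26 lost it, 12 of them against the 1.5-fold change. Deviations from the group means of same-numbered libraries correlated at -0.422, 0.0717 and -0.228. Deviations within a group are not independent and sensitive replicate 3 stood apart, so these values cannot show whether samples were paired. With a replicate block 7193 genes were called, against 7920 without, and PEG10 stayed at -0.88 (adjusted p = 0.182). CDKN1C, MEST, NNAT and MEG3 lay below the filter, and read counts are not analysed here, so counting error at these levels is unknown.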

Other observations

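Relatives of 3 of the imprinted genes were described as groups. Of the MAGE family, to which the NDN product belongs, 10 of 11 tested genes were lower in resistant cells and 0 higher, against 32.5% lower over all tested genes, and 5 of the 11 reached the filter in 1 group only. MAGEA4, a cancer-testis antigen gene normally silent outside the germ line, was at 0.741, 2.26 and 0.938 FPKM in resistant libraries, against 283.9, 314.8 and 306.6 FPKM in sensitive ones, a log2 fold change of -7.09 (limma adjusted p = 8.72e-07). MAGEA6, MAGEA12 and MAGEA3 had -6.16, -5.77 and -5.68, and as near-identical copies they may share reads.

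Of the genes derived from retroelement gag sequences, as PEG10 is, 5 of 8 tested (62.5%) were higher in resistant cells and 1 (12.5%) lower, against 35.2% and 32.5% of all tested genes. RTL8B alone reached the filter in 1 group only. LDOC1 was at 23.9, 23.4 and 23.7 FPKM in resistant libraries, against 0.835, 0.941 and 1.42 FPKM in sensitive ones, a log2 fold change of 3.59. RTL8B was at 2.82, 3.20 and 3.18 FPKM in resistant libraries and listed at 0 in the sensitive ones, and PNMA1 was higher by 1.62. RTL8C, a close copy of RTL8B, had -0.80, a call lost when any 1 of the 3 resistant libraries was left out (adjusted p-values of 0.053 to 0.075). Reads may be shared between these copies, which was not tested.

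In the dystrophin complex, to which the SGCE product is related, 2 of 7 tested genes (28.6%) were higher and 1 (14.3%) lower, against 35.2% and 32.5% of all tested genes. SGCB, encoding beta-sarcoglycan, had a log2 fold change of 2.48 and DMD, encoding dystrophin, of 1.26. DAG1, encoding dystroglycan, had -1.61. DMD reached the filter only in the resistant libraries, so it had to be higher there.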
